A study of Mus musculus with 12 samples.

Results

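Collagens outside the fibrils and the basement membrane are described here across 4 treatments of a mouse osteocyte-like cell line. The 9 genes, of 35214 genes in the data, were taken from a list of non-fibrillar collagen chains: the type VI chains Col6a1, Col6a2 and Col6a3, the type VIII chains Col8a1 and Col8a2, the fibril-associated collagens (FACITs) Col12a1, Col14a1 and Col16a1, and the anchoring-fibril collagen Col7a1. Polyadenylated RNA was sequenced from Ocy454, an established mouse line that grows at 33C and differentiates at 37C, and 12 libraries fell into 4 groups of 3. All cells had differentiated for 5 days. They were then given 1 h of either 200 nM BGJ398, an inhibitor of FGF receptor kinases, or its vehicle DMSO. After that they were kept for 48 h with or without 2 ng/mL of fibroblast growth factor 2 (FGF2), so that RNA was taken on differentiation day 7. The groups are called DMSO, DMSO+FGF2, BGJ398 and BGJ398+FGF2. DMSO is thus the vehicle control, all 4 groups come from 1 cell line, and the labels do not say whether the triplicates were separate cultures, so p-values measure no more than how these libraries vary, in part perhaps for technical reasons.

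Type VI collagen is assembled inside the cell from different alpha chains into a monomer that pairs into dimers and tetramers, and the secreted tetramers join end to end as beaded microfilaments around cells. Type VIII collagen is a short network-forming collagen whose chains resemble type X collagen, and type VII collagen forms the anchoring fibrils beneath epithelia. FACITs carry interrupted triple helices, bind to the surface of collagen fibrils and do not form fibrils themselves, and type XII collagen is abundant in tendon, periosteum and other dense tissues and is made by bone-forming cells.

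Libraries held 18951710 to 27716975 reads. BGJ398+FGF2 replicate 2, DMSO+FGF2 replicate 2 and BGJ398 replicate 1 deviated together from their groups along an axis that held 22.7% of the within-group variance. These 3 libraries were picked for the highest scores on that axis. Leaving them out thus removes within-group spread by selection, and leaves each of their groups with 1 library fewer. Counts of called genes are given with and without these 3 libraries, except for BGJ398+FGF2 against DMSO+FGF2. All 10 listed osteoblast markers passed the low-count filter, though Bglap had 167 and Ibsp 279 reads in all 12 libraries together. Of 10 listed osteocyte markers 5 passed. Sost, Mepe and Irx4 had 0 reads in every library, while Dmp1 had 26, Irx5 8193 and Pdpn 8195 reads in all 12 together. Between 0% and 0.181% of the 31-base words of each gene's transcripts occurred in transcripts of another gene, so reads were rarely shared. Only Col14a1 failed the filter on low counts, which left 8 of the 9 genes in the tests.

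The start regions of the chains that assemble with each other are shown first, because these chains changed together below. Col6a1 and Col6a2 are direct neighbours on chromosome 10, while Col6a3 lies on chromosome 1, Col8a1 on chromosome 16 and Col8a2 on chromosome 4. RefSeq promoter entries of build GRCm38.p6 were found for 7 of the 9 genes, with 2 for Col6a2, of which the upstream one is printed. Each sequence is the 250 bases before the annotated start, 5′ to 3′ on the gene's strand, and capitals mark a match to one of the motifs searched on both strands: AP-1 (TGANTCA), GC box (GGGCGG), TEAD (GGAATG), RUNX (TGTGGT) and TATA box (TATAAA).
Col6a1 (chr10:76726045-76726294, minus strand): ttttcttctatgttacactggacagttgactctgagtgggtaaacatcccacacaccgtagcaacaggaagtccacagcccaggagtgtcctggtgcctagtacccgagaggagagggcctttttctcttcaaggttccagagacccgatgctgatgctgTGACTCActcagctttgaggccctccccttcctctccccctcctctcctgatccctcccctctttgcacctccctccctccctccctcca
Col6a2 (chr10:76623631-76623880, minus strand): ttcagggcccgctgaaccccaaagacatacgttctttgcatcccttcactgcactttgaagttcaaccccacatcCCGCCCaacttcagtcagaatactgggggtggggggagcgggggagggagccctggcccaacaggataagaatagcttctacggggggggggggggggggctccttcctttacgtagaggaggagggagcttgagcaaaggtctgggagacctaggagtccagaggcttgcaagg
Col6a3 (chr1:90843972-90844221, minus strand): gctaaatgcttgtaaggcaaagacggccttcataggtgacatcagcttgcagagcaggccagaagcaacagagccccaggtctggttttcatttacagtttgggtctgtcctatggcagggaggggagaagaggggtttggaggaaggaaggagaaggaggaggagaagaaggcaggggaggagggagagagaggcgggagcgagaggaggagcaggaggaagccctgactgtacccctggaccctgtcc
Col8a1 (chr16:57754738-57754987, minus strand): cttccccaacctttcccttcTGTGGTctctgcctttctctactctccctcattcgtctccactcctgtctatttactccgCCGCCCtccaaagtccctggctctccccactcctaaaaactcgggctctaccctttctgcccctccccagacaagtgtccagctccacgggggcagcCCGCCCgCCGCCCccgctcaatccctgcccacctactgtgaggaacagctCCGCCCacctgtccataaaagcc
Col8a2 (chr4:126286544-126286793, plus strand): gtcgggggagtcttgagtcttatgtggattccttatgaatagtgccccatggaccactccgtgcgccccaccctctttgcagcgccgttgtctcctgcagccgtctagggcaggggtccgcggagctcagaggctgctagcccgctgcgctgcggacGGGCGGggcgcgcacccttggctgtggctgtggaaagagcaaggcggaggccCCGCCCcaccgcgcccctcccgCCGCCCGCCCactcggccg

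The 5 windows have no motif in common. The GC box, the core sequence bound by Sp1-family factors, was found in entries of 5 of the 7 genes (Col6a2, Col7a1, Col8a1, Col8a2 and Col16a1) and in 32.7% of all 32851 promoter windows of this length. An AP-1 match was present in Col6a1 alone, against 6.75% of all windows. The RUNX match was in Col8a1 alone, against 14% of all windows, and a TEAD match occurred only in the other Col6a2 entry, against 12.6%. No window held the TATA box letters, which 12.4% of all windows did. GC content was 70% for Col8a2, 60.8% for Col8a1, 59.2% for this Col6a2 entry, 57.2% for Col6a3 and 56% for Col6a1, against a median of 52.4%. These matches are letters in a window and were not tested as binding sites.

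Type VI and type VIII chains were the most abundant of the 9 on a per-length scale. Levels are compared between genes as TPM, the share of a library's transcripts after division by length, summed over transcripts of at least 1000 bases. Annotated fragments shorter than that held 1.72% of Col6a3 reads but 39.4% of its TPM, and 11.5% of Col7a1 reads but 81.5% of its TPM. In DMSO, Col6a1 was highest at a mean of 710 ± 14.8 TPM (SD, n = 3). Col6a2 followed at 283 ± 6.65 and Col8a2 at 282 ± 0.684 TPM, and the libraries of these 2 genes overlapped. Col6a3, the longest of the type VI chains, had 184 ± 13.5 TPM and Col8a1 180 ± 7.65 TPM, again overlapping. Col12a1 had 101 ± 5.04 TPM and Col16a1 96.9 ± 3.20 TPM, also overlapping. Col7a1 stood far below at 1.01 ± 0.288 TPM, and Col14a1 was lowest at 0.170 ± 0.105 TPM.

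The order of the 7 abundant genes was nearly the same in the other groups. In DMSO+FGF2 Col12a1 was at 41.0 ± 0.826 TPM, below Col16a1 at 86.5 ± 5.28 TPM, and the libraries of these genes did not overlap there. In BGJ398 and BGJ398+FGF2 Col12a1 was again above Col16a1, at 119 ± 12.5 against 84.8 ± 6.70 TPM and at 112 ± 15.7 against 81.2 ± 3.44 TPM. Col8a2 was above Col6a2 in both BGJ398 groups, without overlap in BGJ398 alone.

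**Figure D1:**
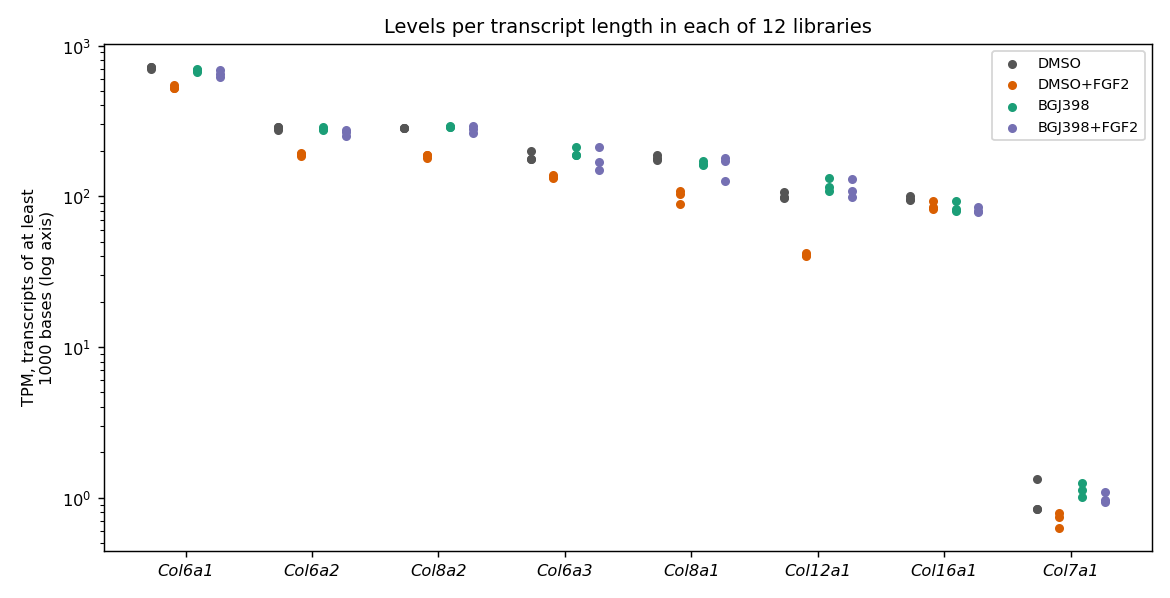
TPM of transcripts of at least 1000 bases (log axis) for 8 genes, with 1 point for each of the 12 libraries, coloured by group. Col6a1 is highest in each group, Col7a1 is near 1 TPM, and the DMSO+FGF2 points of Col12a1 lie below those of Col16a1.

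The first comparison, DMSO+FGF2 against DMSO, asks what FGF2 does to these transcripts when its receptors are free to signal. FGF2 lowered 6 of the 8 tested genes: the 3 type VI chains among the 8, both type VIII chains and Col12a1. None was higher. Among all 12542 genes tested, 13.4% passed the same test (edgeR's quasi-likelihood test, Benjamini-Hochberg adjusted p under 0.05) in either direction and 5.82% passed it as lower. The median log2 fold change was -0.441 over the 8 genes and -0.004 over all genes tested. In bulk RNA, fewer cells of a type and less RNA per cell cannot be told apart. The libraries of 6 of the 8 genes did not overlap between these groups, all lower in DMSO+FGF2, against 18.4% of all genes. Values below are CPM, read counts scaled to library size with TMM factors, and errors of log2 fold changes are standard errors.

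Col12a1, the fibril-surface collagen, had the largest change of the 8. Its level was 541, 489 and 501 CPM in the DMSO libraries and 218, 197 and 220.1 CPM in DMSO+FGF2. It was 547, 658 and 585 CPM in BGJ398 and 548, 411 and 663 CPM in BGJ398+FGF2. The 3 DMSO+FGF2 libraries were the lowest of the 12, and the BGJ398+FGF2 libraries were the most scattered. Col12a1 fell 2.41-fold with FGF2 in DMSO (log2 fold change -1.27 ± 0.13, edgeR adjusted p = 2.72e-05).

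Col8a1 and Col8a2 encode the alpha chains of type VIII collagen. Col8a1 stood at 437, 468 and 447 CPM in DMSO and at 268, 241 and 281 CPM in DMSO+FGF2. In the BGJ398 libraries it was 424, 425 and 412 CPM, and in BGJ398+FGF2 430.0, 362 and 449.6 CPM. The DMSO+FGF2 libraries lay below all 9 others. Col8a1 fell 1.71-fold with FGF2 in DMSO (-0.77 ± 0.08, edgeR adjusted p = 2.00e-05).

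Col8a2 was 687, 703 and 703 CPM in DMSO and 480.4, 489.6 and 473 CPM in DMSO+FGF2. With the inhibitor it was 762, 679.7 and 673 CPM in BGJ398 and 658, 662 and 701 CPM in BGJ398+FGF2. Again the 3 DMSO+FGF2 libraries were the lowest of the 12. The fall with FGF2 in DMSO was 1.45-fold (-0.54 ± 0.05, edgeR adjusted p = 2.45e-05).

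The type VI chains among these genes had log2 fold changes between -0.35 and -0.50. Col6a5, a type VI chain outside the list, rose with FGF2 in DMSO and is described further below. Col6a1, whose product is required in every type VI monomer, had 1789.8, 1753 and 1805 CPM in DMSO and 1357, 1439 and 1399.5 CPM in DMSO+FGF2. Col6a1 had 1833, 1680.4 and 1597 CPM in BGJ398 and 1559, 1625 and 1685 CPM in BGJ398+FGF2. The DMSO+FGF2 libraries did not overlap those of another group, and the change with FGF2 in DMSO was 1.27-fold lower (-0.35 ± 0.06, edgeR adjusted p = 0.000992).

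Col6a2, which is likewise part of each monomer, had 761, 754 and 782 CPM in DMSO and 518, 575 and 528 CPM in DMSO+FGF2. In BGJ398 it had 809.8, 720.1 and 707 CPM and in BGJ398+FGF2 688, 686 and 723 CPM. All DMSO+FGF2 libraries were below all others, and Col6a2 fell 1.42-fold (-0.50 ± 0.06, edgeR adjusted p = 9.86e-05).

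Col6a3, the largest chain of type VI collagen in these monomers, had 1205, 1073 and 1077 CPM in DMSO and 831, 882 and 864 CPM in DMSO+FGF2. It had 1172, 1240.1 and 1087 CPM in BGJ398 and 984, 936 and 1244 CPM in BGJ398+FGF2. DMSO+FGF2 was again lowest, and BGJ398+FGF2 replicate 3 was the highest library. Col6a3 fell 1.30-fold (-0.38 ± 0.09, edgeR adjusted p = 0.0146), and this call was lost without DMSO replicate 1 (adjusted p = 0.0723) and without DMSO+FGF2 replicate 1 (adjusted p = 0.0555).

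**Figure D2:**
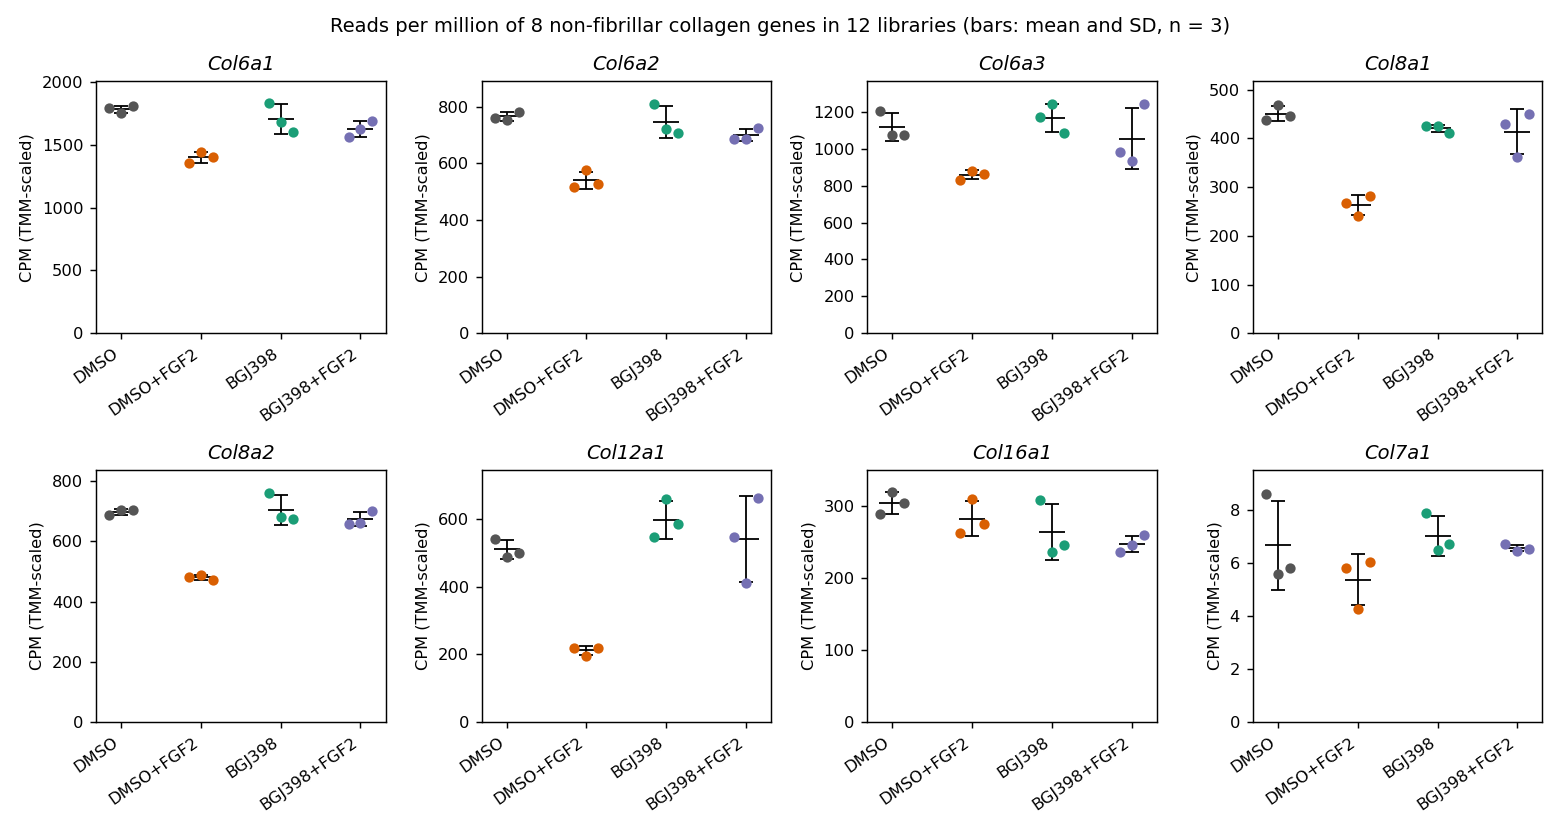
CPM after TMM scaling (vertical axes from 0) of the 8 tested genes in each library by group, with bars for the mean and SD of 3 libraries. For the type VI chains, the type VIII chains and Col12a1 the DMSO+FGF2 points lie below those of the other 3 groups, while Col16a1 and Col7a1 overlap between DMSO and DMSO+FGF2.

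Marker lists were compared between the same groups. The summed level of 10 osteocyte markers was 65.5 to 69.1 CPM in the DMSO libraries and 69.9 to 70.4 CPM in DMSO+FGF2, with Irx5 at means of 31.5 and 20.5 CPM and Pdpn at 27.0 and 38.9 CPM. The sum of 10 osteoblast markers was 3180.5 to 3231 against 2629.8 to 2837 CPM, in which Sparc went from 2613 to 1607 CPM and Spp1 from 377 to 957 CPM. For 5 tendon markers the sum was 1994 to 2039 against 977 to 1000.1 CPM. That difference was almost all Fmod, which is also listed below as a collagen partner, since Scx had 40.2 ± 2.65 and 45.2 ± 3.74 CPM, Mkx 17.8 ± 2.27 and 16.7 ± 0.518 CPM, and Tnmd and Thbs4 0 reads. The sum of 9 chondrocyte markers was 20.8 to 22.9 against 27.1 to 28.6 CPM, with Sox9 at 13.5 and 24.2 CPM, Comp at 2.75 and 1.77 CPM, Matn3 at 4.42 and 1.26 CPM and Cnmd at 0 reads. For 7 adipocyte markers it was 24.6 to 25.96 against 18.5 to 20.5 CPM, nearly all from Cebpa, with Adipoq and Lpl at 0 reads. For 6 macrophage markers it was 2.93 to 3.30 against 5.71 to 7.19 CPM, with Cd68 at 1.53 and 5.95 CPM, Lyz2 at 0.915 and 0.396 CPM and Adgre1 at 0 reads. Muscle and endothelial markers were also listed, and their summed levels overlapped between DMSO and DMSO+FGF2, unlike those of the lists above. The part of other cell types in the collagen result was not tested.

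The other 2 tested genes did not pass for FGF2 in DMSO. Col16a1, another FACIT, had 289.6, 320.1 and 305 CPM in DMSO and 263, 310.1 and 275 CPM in DMSO+FGF2, which overlapped. Its log2 fold change was -0.11 ± 0.09 (95% interval -0.31 to 0.09, edgeR adjusted p = 0.496). Without the 3 libraries that deviate together it was -0.18 with an adjusted p of 0.0152, which brought the count of lower genes from 6 to 7, while lower calls over all genes went from 730 to 1230. Col16a1 had 308, 237 and 246 CPM in BGJ398 and 237, 246 and 259.5 CPM in BGJ398+FGF2, and BGJ398 replicate 1 was the highest of these 6. Col7a1 had between 100 and 170 reads per library, and 8.6, 5.59 and 5.82 CPM in DMSO against 5.82, 4.26 and 6.04 CPM in DMSO+FGF2. Its change was -0.30 ± 0.18 (interval -0.68 to 0.08, edgeR adjusted p = 0.308), and it was 0.14, of the opposite sign, from counts rebuilt from TPM. Col14a1, the third FACIT, was too scarce to test. Its DMSO libraries had 8, 8 and 2 reads, the DMSO+FGF2 libraries 1, 0 and 0, the BGJ398 libraries 0, 2 and 2, and the BGJ398+FGF2 libraries 4, 4 and 3. A count of 0 allows up to 3 reads in a library, by counting error alone, and with group sums of 18, 1, 4 and 11 reads no fold was computed.

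Under BGJ398 the effect of FGF2 was not detected on any of these genes. In BGJ398+FGF2 against BGJ398, 0 of the 8 genes passed, and neither did the rest, 0% of the 12542 genes by edgeR, where 325 genes had an unadjusted p under 0.05 and DESeq2 called 5. Log2 fold changes ran from -0.14 for Col6a3 and Col12a1 to -0.02 for Col8a1, and all 8 were below 0, with a median of -0.093 against 0 over all genes. The 95% interval was -0.19 to 0.14 for Col8a1, -0.18 to 0.05 for Col8a2 and -0.22 to 0.04 for Col6a2. It was -0.42 to 0.14 for Col12a1 and -0.34 to 0.05 for Col6a3. A fall is thus within the error of each. For Col6a3 the interval reaches nearly to its change of -0.38 with FGF2 in DMSO.

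The difference between both FGF2 effects was tested directly as an interaction, in which the log2 FGF2 change in DMSO was subtracted from that under BGJ398. The estimate was above 0 for all 8 genes and passed the test for 4 of them, whereas 1.99% of all genes tested passed in that direction and 4.24% in either. Col12a1 had an interaction of 1.13 ± 0.18 (edgeR adjusted p = 0.00304) and Col8a1 of 0.75 ± 0.11 (adjusted p = 0.00139). Col8a2 had 0.47 ± 0.08 (edgeR adjusted p = 0.00322) and Col6a2 0.41 ± 0.09 (adjusted p = 0.0151). Among the type VI chains of these 8 genes only Col6a2 was called in this fit. The interaction was 0.28 ± 0.08 for Col6a1 (edgeR adjusted p = 0.0708) and 0.24 ± 0.13 for Col6a3 (adjusted p = 0.396). Whether these chains differ from each other was not tested, and Col6a5, a type VI chain outside the 8, is given further below. Col6a1 passed without the 3 libraries that deviate together (0.35, adjusted p = 0.000941), which made the count 5, while calls above 0 over all genes went from 250 to 500. It also passed by DESeq2 (0.27, adjusted p = 0.0177), from length-scaled TPM (0.30, adjusted p = 0.0482), with length and GC offsets (0.34, adjusted p = 0.000562), without BGJ398 replicate 1 (adjusted p = 0.0206) and without BGJ398+FGF2 replicate 2 (adjusted p = 0.0487), which with the first makes 6 of 20 other settings. Col7a1 had 0.20 ± 0.25 and Col16a1 0.02 ± 0.13, with edgeR adjusted p of 0.750 and 0.969.

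**Figure D3:**
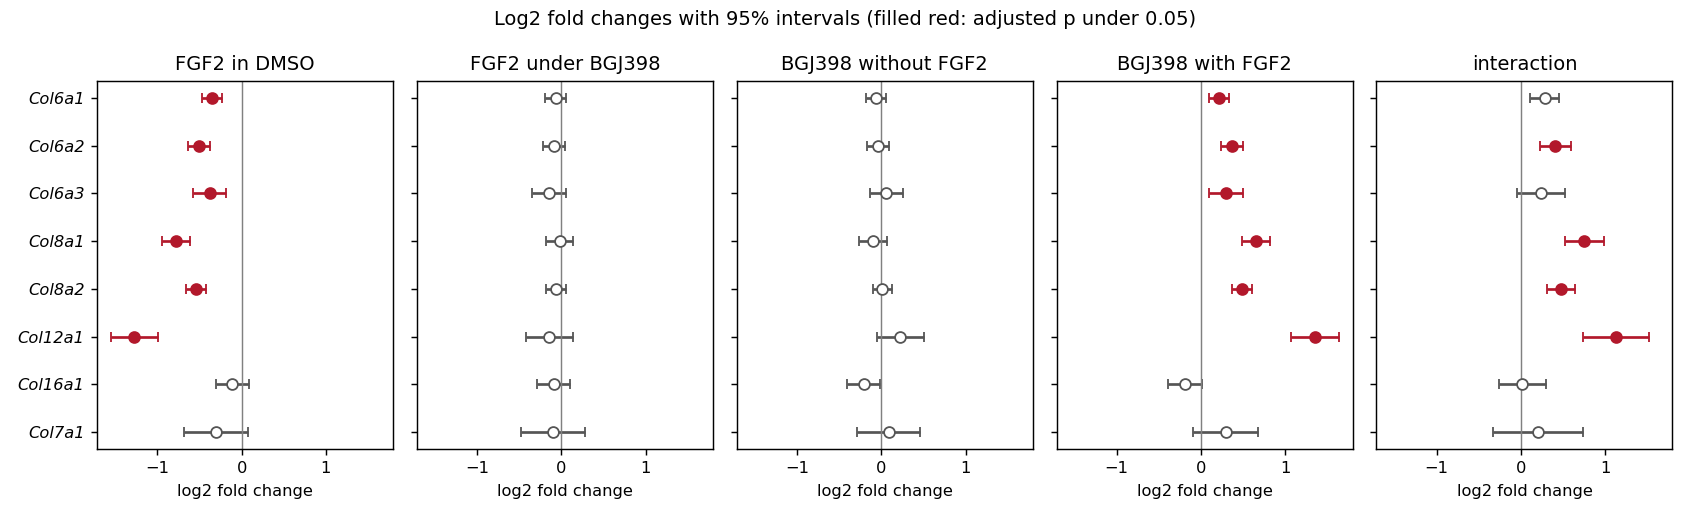
Log2 fold changes (horizontal axes) of the 8 tested genes in 4 comparisons and in their interaction, from which the DMSO change with FGF2 was subtracted. Points are estimates, bars 95% intervals, and filled red points have an edgeR adjusted p under 0.05. The type VI chains, the type VIII chains and Col12a1 are called below 0 with FGF2 in DMSO, lie near 0 under BGJ398, and are called above 0 for BGJ398 with FGF2.

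BGJ398+FGF2 was also set against DMSO+FGF2, which asks what the inhibitor does in the presence of the ligand. This comparison shares the DMSO+FGF2 libraries with the first, so it is not independent of it. Here 6 of the 8 genes were higher with BGJ398 and none lower, against 10.8% of all genes called higher and 22.2% called in either direction. Col12a1 rose by 1.35 ± 0.13 on the log2 scale (edgeR adjusted p = 1.27e-05), 2.56-fold. Col8a1 rose by 0.65 ± 0.08 (edgeR adjusted p = 6.19e-05) and Col8a2 by 0.49 ± 0.05 (adjusted p = 4.32e-05). Col6a2 rose by 0.37 ± 0.06 (edgeR adjusted p = 0.000809), Col6a3 by 0.30 ± 0.09 (adjusted p = 0.0346) and Col6a1 by 0.21 ± 0.06 (adjusted p = 0.0156).

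The smaller 2 of these type VI calls depended on single libraries. Col6a3 was no longer called without any 1 of the 3 DMSO+FGF2 libraries (adjusted p = 0.102, 0.0607 and 0.0824 without replicates 1, 2 and 3) or without BGJ398+FGF2 replicate 3 (0.16 on the log2 scale, adjusted p = 0.131). Col6a1 was not called without DMSO+FGF2 replicate 1 (adjusted p = 0.0610) or BGJ398+FGF2 replicate 3 (adjusted p = 0.0524). Col16a1 was lower in every BGJ398+FGF2 library than in every DMSO+FGF2 library but did not pass (-0.19 ± 0.09, edgeR adjusted p = 0.156), and Col7a1 did not pass either (0.29 ± 0.18, adjusted p = 0.270). Libraries did not overlap for any of the 8 genes, against 34.8% of all genes.

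Without FGF2, the inhibitor moved none of the 8 genes past the test. In BGJ398 against DMSO 0 of 8 passed, and 0.327% of all genes did, with 41 genes called. Col12a1 was higher in every BGJ398 library than in every DMSO library, at 0.22 ± 0.13 (interval -0.05 to 0.50, edgeR adjusted p = 0.720). It passed without the 3 libraries that deviate together (0.28, adjusted p = 0.0275) and after offsets for transcript length and GC content (0.26, adjusted p = 0.0179). Col16a1 had -0.21 ± 0.09 (interval -0.41 to -0.01, edgeR adjusted p = 0.570), and -0.34 with an adjusted p of 0.00181 without those libraries, where calls over all genes went from 41 to 730. Libraries did not overlap for 2 of the 8 genes, Col12a1 and Col8a1, against 17.2% of all genes. Apart from Col12a1 and Col16a1, log2 fold changes ranged from -0.10 for Col8a1 to 0.09 for Col7a1.

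Cells given both agents were last compared with cells given neither. In BGJ398+FGF2 against DMSO 0 of the 8 genes passed, with 0.734% of all genes called. Col16a1 was furthest from 0 at -0.30 ± 0.09 (interval -0.50 to -0.10, edgeR adjusted p = 0.164), and its libraries did not overlap between the groups. Col6a1 and Col6a2 each had -0.13 ± 0.06, also without overlap (edgeR adjusted p = 0.312 and 0.366). Libraries failed to overlap for 3 of the 8 genes, all lower in BGJ398+FGF2, and for 8.58% of all genes as lower. Without the 3 libraries that deviate together 3 genes passed: Col16a1 (-0.30, adjusted p = 0.00275), Col6a1 (-0.14, adjusted p = 0.0373) and Col12a1 (0.24, adjusted p = 0.0493), while calls over all genes went from 92 to 861.

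Because chains of 1 type assemble with each other, ratios of their levels (TPM) were followed as well. Col6a2 relative to Col6a1 was 0.398 ± 0.00203 in DMSO and 0.358 ± 0.0112 in DMSO+FGF2 (SD, n = 3). It was 0.410 ± 0.00666 in BGJ398 and 0.405 ± 0.00682 in BGJ398+FGF2. The ratio was thus lowest in DMSO+FGF2, whose highest library (0.370) was below the lowest of the DMSO libraries (0.397). On the log2 scale the FGF2 difference in DMSO was -0.16, with a 2-sided exact permutation p of 0.1, the smallest that 3 against 3 libraries can give. Col8a2 relative to Col8a1 was 1.61 ± 0.0684 in DMSO and 1.89 ± 0.154 in DMSO+FGF2, a log2 difference of 0.23 (exact permutation p = 0.1). That ratio was 1.79 ± 0.0306 in BGJ398 and 1.83 ± 0.267 in BGJ398+FGF2, so DMSO+FGF2 did not stand apart from the inhibitor groups. Col6a3 relative to Col6a1 was 0.447 ± 0.0332 in DMSO and 0.425 ± 0.0107 in DMSO+FGF2 (log2 difference -0.07, exact permutation p = 0.4). Over transcripts of at least 1000 bases, which leave out the short fragments of Col6a3, that ratio was 0.260 ± 0.0160 and 0.255 ± 0.00193 (log2 difference -0.02, exact permutation p = 1). On this scale the log2 differences of the Col6a2 and Col8a2 ratios were -0.16 and 0.24. Adjusted over the 3 ratios the smallest p was 0.15.

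The division of reads among the transcripts of a gene was compared in the same way for 4 genes, and no p adjusted over the 4 was below 0.2. Its main transcript, Col6a2-201, took 78.5% ± 0.994 of Col6a2 reads in DMSO and 74.7% ± 1.56 in DMSO+FGF2 (SD, n = 3; difference -3.83 percentage points, 2-sided exact permutation p = 0.1). Col6a2-202, a longer protein-coding transcript, took 18.3%, 19.7% and 17.8% in the DMSO libraries and 22.3%, 21.01% and 22.8% in DMSO+FGF2. With the inhibitor its share was 18.1% to 19.2% in BGJ398 and 18.7% to 19.3% in BGJ398+FGF2, so the 3 DMSO+FGF2 libraries were the highest of the 12. Salmon divides reads between transcripts that overlap, so these shares are estimates.

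The other shares varied more between libraries or did not separate DMSO+FGF2 from all groups. Col6a3-202 took 61.5% ± 0.767 of Col6a3 reads in DMSO and 64.5% ± 5.75 in DMSO+FGF2 (exact permutation p = 0.6). The longer Col6a3-201 took 27.2% in DMSO+FGF2 replicate 2 and 19.1% in BGJ398+FGF2 replicate 2, 2 of the libraries that deviate together, and 32.6% to 38.0% in the other 10. Those same libraries had offsets for transcript length and GC of -0.045 and -0.309 (log2) for Col6a3, and their part in the share was not tested. Col16a1-201 took 32.8% ± 1.04 of Col16a1 reads in DMSO and 34.8% ± 0.879 in DMSO+FGF2 (exact permutation p = 0.1), but 36.5% ± 1.43 in BGJ398. Another 32.8% ± 3.28 of Col16a1 reads in DMSO went to Col16a1-209, which is annotated as a target of nonsense-mediated decay. The near-identical Col7a1-201 and Col7a1-202 exchanged almost all reads between libraries, from 0% to 93.3% for Col7a1-201 and from 0% to 98.0% for Col7a1-202, and could not be separated.

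**Figure D4:**
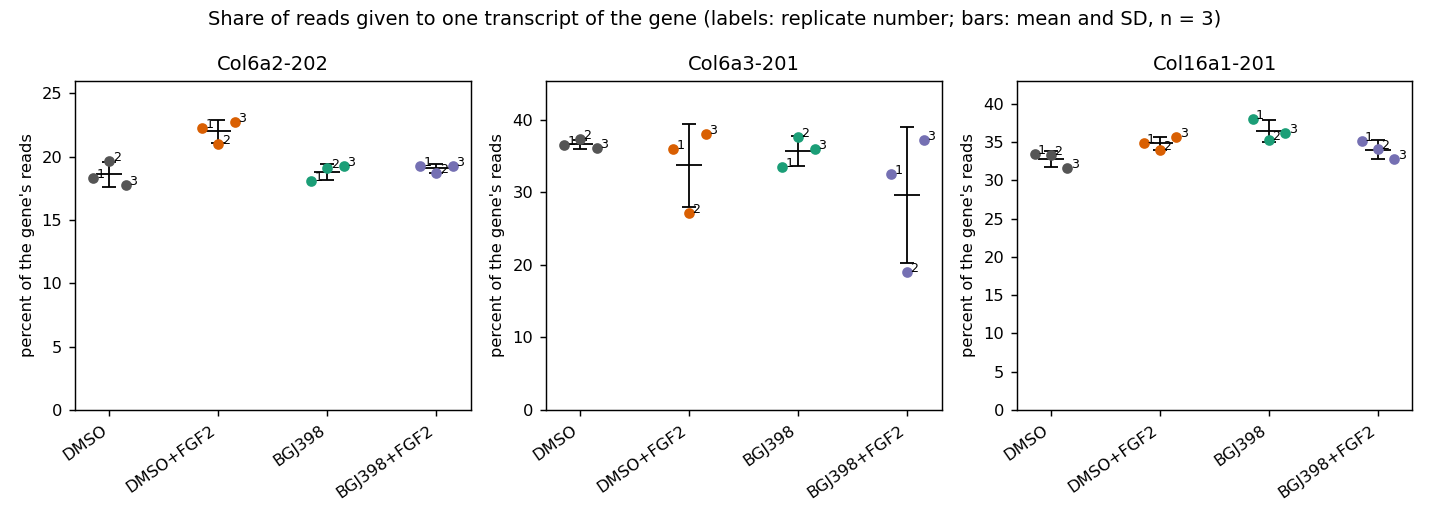
Percent of a gene's reads given to Col6a2-202, Col6a3-201 and Col16a1-201 in each library, by group, with replicate numbers beside the points and bars for the mean and SD (n = 3). Col6a2-202 is highest in DMSO+FGF2, and Col6a3-201 is low in replicate 2 of both FGF2 groups.

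The 9 genes were next set among the other collagens. Their summed level was 5637 ± 77.8 CPM in DMSO, 4042 ± 97.9 in DMSO+FGF2, 5608 ± 278 in BGJ398 and 5259 ± 419 in BGJ398+FGF2 (SD, n = 3). Over the same groups they made up 19.4% ± 0.656, 21.1% ± 1.09, 18.5% ± 0.505 and 17.8% ± 0.563 of all collagen reads. FGF2 in DMSO lowered 8 of 11 fibrillar collagens (median -0.592) and 4 of 5 tested basement membrane collagens (median -0.794). The median was -0.441 for the 8 genes described here, and 5.82% of all genes tested were called lower. Examples were Col11a1 at -1.38 ± 0.09, Col27a1 at -1.72 ± 0.16, Col3a1 at -0.59 ± 0.06 and Col1a2 at -0.55 ± 0.06 among the fibrillar chains. Basement membrane examples were Col4a1 at -0.79 ± 0.08, Col4a2 at -0.85 ± 0.08, Col4a5 at -0.62 ± 0.07 and Col15a1 at -2.12 ± 0.39. Col15a1 fell from a low level, with 69 reads in the DMSO libraries together and 15 in those of DMSO+FGF2. Whether the medians of these classes differ was not tested.

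A type VI chain outside the 9 genes went the other way. Of 16 other non-fibrillar collagens 5 could be tested, and only Col6a5, which can take the place of the Col6a3 chain, was called. Col6a5 was at 24.7 ± 1.44 CPM in DMSO, 44.0 ± 3.55 in DMSO+FGF2, 34.8 ± 1.20 in BGJ398 and 32.3 ± 4.80 in BGJ398+FGF2. It rose by 0.84 ± 0.10 with FGF2 in DMSO (edgeR adjusted p = 7.54e-05) and had an interaction of -0.95 ± 0.14 (adjusted p = 0.00157), so its log2 FGF2 change under BGJ398, -0.11 ± 0.10, was lower than that in DMSO.

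**Figure D5:**
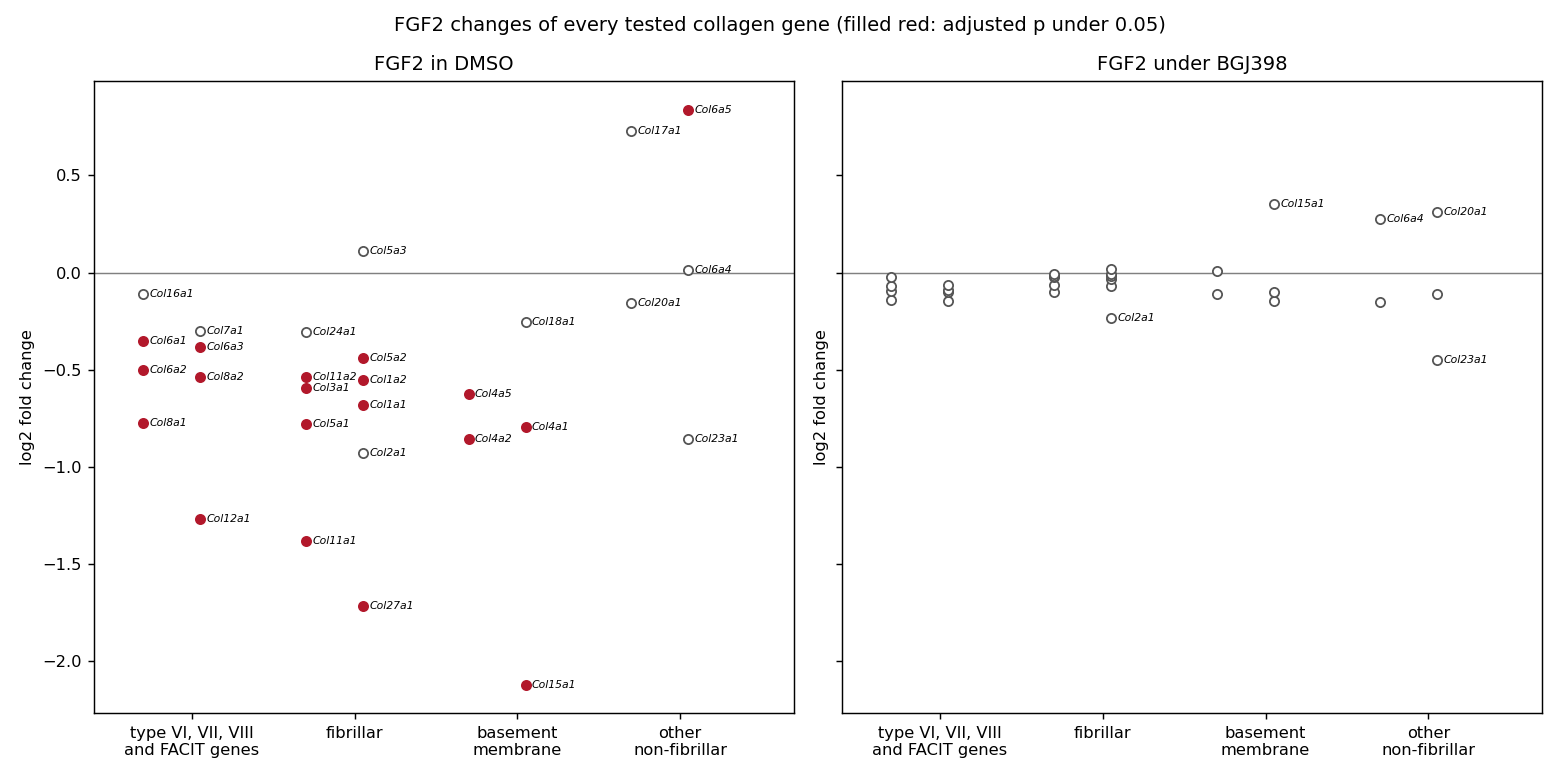
Log2 fold change (vertical axis) with FGF2 in DMSO (left) and under BGJ398 (right) of each tested collagen gene, in 4 classes. Filled red points have an edgeR adjusted p under 0.05: 6 of 8 of the type VI, VII, VIII and FACIT genes, 8 of 11 fibrillar and 4 of 5 basement membrane genes are called lower on the left, Col6a5 alone is called higher, and 0 genes are called on the right. Names on the right are given where the change exceeds 0.2 in size.

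Receptors and binding partners of these collagens moved both ways. Of 28 listed genes 23 were tested, and with FGF2 in DMSO 7 fell and 4 rose, with a median of -0.064. Over all genes tested, 13.4% were called in either direction and 5.82% were called lower. Itga1, the alpha subunit of a collagen-binding integrin, fell by 1.01 ± 0.09 on the log2 scale, from 31.2 ± 1.67 to 15.5 ± 1.78 CPM (edgeR adjusted p = 9.19e-06). Tnc, the matrix glycoprotein tenascin C that binds type XII collagen, had 297 ± 16.2 CPM in DMSO and 112 ± 2.15 in DMSO+FGF2 (-1.40 ± 0.08, edgeR adjusted p = 2.01e-07). Fmod, a small proteoglycan of collagen fibrils, went from 1964 ± 26.8 to 929 ± 14.99 CPM (-1.08 ± 0.05). Matn3, a matrilin, was at 4.42 ± 0.612 and 1.26 ± 0.113 CPM (-1.80 ± 0.16). Vwa1, a matrix protein that binds type VI collagen and that is named here after its values were seen, rose from 9.78 ± 0.621 to 24.1 ± 3.69 CPM (1.29 ± 0.17, edgeR adjusted p = 0.000188).

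The machinery that folds and processes collagen chains moved in both directions too. With FGF2 in DMSO 7 of 29 tested genes fell and 6 rose, with a median of -0.024. The shares called over all genes tested were 13.4% in either direction and 5.82% as lower. Among those that fell was Serpinh1, the collagen chaperone of the endoplasmic reticulum (1546 ± 52.0 to 1131 ± 60.6 CPM, -0.45 ± 0.08, edgeR adjusted p = 0.00124). Fkbp10 and Fkbp14, prolyl isomerases of the same compartment, fell by 0.47 ± 0.06 and 0.48 ± 0.07 on the log2 scale. Pcolce2, an enhancer of procollagen C-propeptide removal, fell by 2.16 ± 0.26 but from a low level, 3.61 ± 0.424 CPM in DMSO. The 6 that rose were P4hb, Adamts2, Adamts14, Lox, Furin and Bmp1, named after their values were seen. P4hb, a subunit of prolyl 4-hydroxylase and a disulfide isomerase, rose from 1745 ± 31.1 to 2195 ± 108 CPM (0.33 ± 0.06, edgeR adjusted p = 0.00248). Adamts2, a procollagen N-propeptidase, rose from 87.9 ± 6.71 to 113 ± 7.83 CPM (0.36 ± 0.08, edgeR adjusted p = 0.00650).

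The genes whose profile over the 12 libraries was most like that of each called gene were found among 10373 protein-coding genes, by the root mean square difference of centred log2 CPM. Col8a2 lay closest to Itga11 (0.0507), the alpha subunit of another collagen-binding integrin, to Col6a2 (0.0525) and to the fibrillar chain Col5a2 (0.0533). Col6a2 in turn lay closest to Col8a2, then to Efnb1 (0.0658) and Itga11 (0.0692), with its neighbour and partner Col6a1 in the fourth place (0.0759). Col12a1 lay closest to the fibrillar chain Col11a1 (0.144), followed by Fat4 (0.147) and Ndnf (0.152). Col8a1 was closest to Fzd5 (0.0692), Thbs1 (0.0757) and Epha3 (0.0792). Its partner chain Col8a2 was at 0.125 by the same measure, in place 36, and Col8a1 was in place 132 from Col8a2. Col6a1 was closest to Ephb3 (0.0356), Gpsm2 (0.0606) and Chst2 (0.0636), with Col6a2 in place 32 and Col6a3 in place 406. Col6a3 was closest to Qrsl1 (0.0756), Lamc1 (0.0832) and Kif7 (0.0886), with Col6a1 in place 32 and Col6a2 in place 39. These distances are a description of 12 libraries that share groups, and carry no test.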

How the data were processed

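Salmon was used to quantify transcripts, according to the submitters' processing notes, where genome build GRCm39 is named without a Salmon version. Trimming, strand use and bias correction: not given in the sources used here. Per the file headers, each of 116178 transcripts has deposited expected counts (estimated reads, not scaled), TPM (per length, with 1 total for all libraries) and lengths in bases. Identifiers of 114656 transcripts matched 35214 genes of GENCODE M21 (build GRCm38), and unmatched reads, 0.499% to 0.641% per library, were left out.

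Expected counts were added up by gene, then rounded. With edgeR 4.0.16 (R 4.3.3), filterByExpr kept 12542 genes, and 1 quasi-likelihood model of the 4 group means was fitted after TMM scaling (8 residual degrees of freedom, biological coefficient of variation 8.49%). The threshold was a Benjamini-Hochberg adjusted p of 0.05 over all tested genes, and a standard error is the absolute log2 fold change divided by the square root of F. Ratios and shares were given exact permutation tests. The script was tested on simulated counts. The genes and lists were chosen with earlier results of these data known. Named are all 9 genes, up to 4 called genes with the smallest p from each list, and, for each called gene, the 3 protein-coding genes (mean CPM of 5 or more) nearest in profile. Same-group library pairs differed by 3.21 to 24.8 times what Poisson counting gives, so none was a duplicate.

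Other settings were DESeq2 1.42.0, limma-voom (limma 3.58.1), DESeq2's size factors (RLE), no filter on low counts, counts rebuilt from TPM, only the groups compared, a replicate block and each library left out. Leaving out the 3 libraries that deviate together, offsets for length and GC, and ratios from transcripts of at least 1000 bases were chosen after seeing the data.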

Additional observations from a re-analysis of the deposited data

Results flagged for a closer look

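For 4 of the 8 tested genes the log2 FGF2 change under BGJ398 differed from that in DMSO by edgeR's interaction test. Of all genes tested, 4.24% passed it in either direction and 1.99% above 0. The difference was 1.13 for Col12a1 (-1.27 in DMSO, -0.14 under BGJ398), 0.75 for Col8a1 (-0.77 and -0.02), 0.47 for Col8a2 (-0.54 and -0.06) and 0.41 for Col6a2 (-0.50 and -0.09). In each of the 12 fits that left out 1 library at least 4 of the genes were called, with 328 to 956 calls over all genes.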

How the results depend on the processing

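Over all settings run, the signs of the 6 falls with FGF2 in DMSO and of the 6 rises for BGJ398 with FGF2 held, with 5 to 6 and 4 to 6 genes called when 1 library was left out. The interaction gave 4 to 5, and the other 3 comparisons gave 0, without 1 library. Deviations of same-numbered libraries correlated at -0.146 to 0.239, over 0.1 in 2 of 18 pairs. Those of differently numbered libraries of different groups correlated at -0.24 to 0.179. Pairing by replicate number was thus not seen, but these values cannot exclude it. With the replicate block 6, 0, 0, 5, 4 and 0 of the genes were called, in the order of the next paragraph, and Col6a3 lost its call for BGJ398 with FGF2 (0.29, adjusted p = 0.0555); with only the groups compared it was lost too (adjusted p = 0.0876).

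Counts over all genes moved more. FGF2 in DMSO called 1680 genes, 1018 to 1336 without 1 library, 2611 without the 3 deviating libraries and 2730 with length and GC offsets. FGF2 under BGJ398 called 0, 0 to 1 without 1 library, 5 by DESeq2, 6 with no filter, 1 with only the groups compared, 4 without the 3 libraries and 1 with offsets. BGJ398 without FGF2 called 41, 9 to 27 without 1 library, 153 by DESeq2, 83 with no filter, 12 from length-scaled TPM, 64 with only the groups compared, 21 with the replicate block, 730 without the 3 libraries and 236 with offsets. BGJ398 with FGF2 called 2782, 1811 from length-scaled TPM and 1794 with only the groups compared. The interaction called 532, 328 to 956 without 1 library, 825 by DESeq2, 348 from length-scaled TPM, 1038 without the 3 libraries and 1224 with offsets. Both agents together called 92, 11 to 79 without 1 library, 313 by DESeq2, 173 with no filter, 40 from length-scaled TPM, 13 with only the groups compared, 36 with the replicate block, 861 without the 3 libraries and 455 with offsets. Of the 9 genes, 2 and 1 were called for BGJ398 without FGF2 without the 3 libraries and with offsets, and 3 and 1 for both agents together without the 3 libraries and with no filter. The causes were not tested.

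Sign changes occurred only among values that were not called. For FGF2 in DMSO, Col7a1 was 0.14 from length-scaled TPM. For FGF2 under BGJ398, Col7a1 was 0.42 from length-scaled TPM. Without BGJ398 replicate 1, Col16a1 was 0.036. Without BGJ398+FGF2 replicate 2, Col8a1 was 0.065 and Col12a1 0.021; without replicate 3 they were -0.085 and -0.32. Without the 3 libraries Col8a1 was 0.068, Col8a2 0.0030 and Col16a1 0.036. For BGJ398 without FGF2, Col6a3 was -0.017 and Col7a1 -0.16 from length-scaled TPM. Col7a1 was -0.026 without DMSO replicate 2 and -0.0037 without BGJ398 replicate 1, where Col8a2 was -0.045, and these genes reached 0.30 and 0.047 without DMSO replicate 1 and BGJ398 replicate 3. Without the 3 libraries Col7a1 was -0.00035 and Col8a2 -0.045, and with offsets Col6a2 was 0.013. In the interaction, Col16a1 was -0.012 from length-scaled TPM, -0.019 without DMSO replicate 2, -0.053 and -0.031 without BGJ398 replicates 2 and 3, -0.032 and -0.0011 without DMSO+FGF2 replicates 1 and 3, and -0.018 without BGJ398+FGF2 replicate 3, and Col7a1 was -0.012 and 0.32 without DMSO replicates 1 and 2. For both agents together, Col7a1 was 0.041 by limma-voom, 0.27 from length-scaled TPM, 0.20 and -0.13 without DMSO replicates 1 and 2, 0.00081 without BGJ398+FGF2 replicate 2 and 0.15 with offsets. Col8a2 was 0.013 from length-scaled TPM and 0.033 with offsets, where Col6a3 was 0.033, and Col12a1 was -0.090 and 0.25 without BGJ398+FGF2 replicates 3 and 2. The leading Col6a3 transcript's share differed by -0.176 to 5.28 percentage points without 1 library, and fell to -0.176 without DMSO+FGF2 replicate 2.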
